A study of Mus musculus with 6 samples.

Results

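The Hedgehog pathway was represented in isolated mouse taste cells by 9 genes, taken by name. They were the ligand gene Shh, the receptor gene Ptch1, the co-receptor gene Boc and Hhip, the gene of an inhibitor that binds ligand. The others were the transducer gene Smo, the inhibitor gene Sufu and the transcription factor genes Gli1, Gli2 and Gli3. All 9 were found among the 23361 genes of the deposited table, each on 1 row. The genes were chosen for their place in the pathway and not by a measured value, but earlier results of these data were known. At 2 and 6 months of age, Smo, Gli1 and Ptch1 had the highest levels of the 9, Shh was present at a low level, and Hhip was close to 0. A gene is called expressed here when the mean of its 2 age values was 1 FPKM or more, where FPKM is the number of sequenced fragments scaled by transcript length and by library size. Of the 9 genes 7 were expressed, and 0 of these differed between the ages by 1.5-fold or more. Among all expressed genes 2.77% did, so a count of 0 among 7 is near the background.

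In the Hedgehog pathway a secreted ligand binds the membrane protein Patched, which otherwise holds the membrane protein Smoothened inactive. Released Smoothened acts through the primary cilium to free Gli transcription factors from their inhibitor Sufu, and Gli proteins then switch on target genes, among them Gli1 and Ptch1 themselves. In the tongue, Shh marks post-mitotic precursor cells at the base of taste buds, and cells around the bud carry the response. Taste buds need the pathway for their upkeep, and drugs that block Smoothened disturb taste.

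The 6 samples were pools of taste cells freed by enzyme treatment from the circumvallate and foliate (CV/Fol) papillae of wild-type C57BL/6 mice, grooves rich in taste buds on the rear part of the tongue. Of these, 3 pools came from mice aged 2 months and 3 from mice aged 6 months, with no other treatment or genotype in either group. Each pool held the cells of several mice, with more mice per pool at the younger age, so no value belongs to a single animal, and no source used here gives the sex of the mice. The table holds 1 FPKM value per gene and age, the authors' estimate over the 3 pools, so no SD, interval or test of the age difference is given, and whether the 2 groups overlapped gene by gene was not analysed here. Depth per pool is unknown, since FPKM does not carry it. In such bulk samples, fewer cells of a type and less RNA per cell cannot be told apart.

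**Figure D1:**
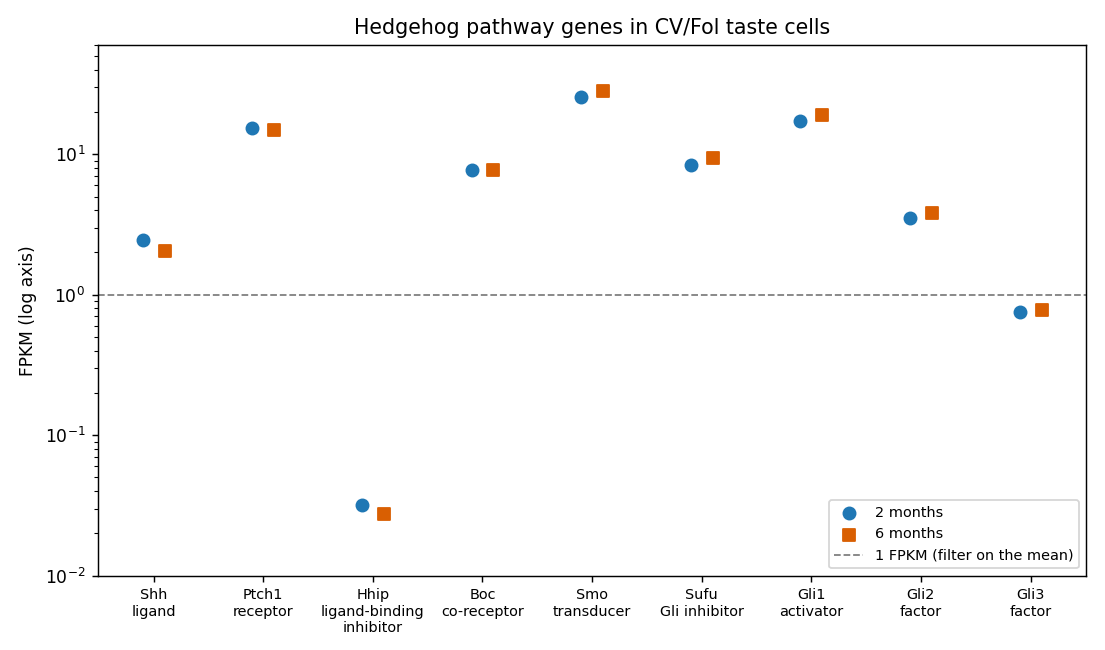
FPKM of the 9 Hedgehog pathway genes on a log axis, with 1 point for 2 months (circles) and 1 for 6 months (squares), each the authors' value over 3 pools. Smo, Gli1 and Ptch1 lie between 14.8 and 28.1 FPKM at both ages, Gli3 just under the dashed line at 1 FPKM, and Hhip near 0.03 FPKM.

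The order of the 9 levels was the same at both ages. By mean FPKM over the 2 ages, Smo came first with 26.9, followed by Gli1 with 18.3, Ptch1 with 15.1, Sufu with 8.85, Boc with 7.72, Gli2 with 3.68, Shh with 2.25, Gli3 with 0.769 and Hhip with 0.0297 FPKM. The closest neighbours were Sufu and Boc, 1.15-fold apart, and Gli1 and Ptch1, 1.21-fold apart. The widest step was the last, 25.9-fold between Gli3 and Hhip. The spread between pools is not known for these levels, so it was not tested which neighbours differ. FPKM is scaled by transcript length, which allows levels to be set beside each other between genes. Smo had a higher mean level than 73.2% of the 12652 expressed genes, Gli1 than 62.7%, Ptch1 than 57.5% and Shh than 11.7%.

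Shh encodes sonic hedgehog, the ligand of the family used in the tongue. It lies on chromosome 5 of GRCm38 from 28456815 to 28467256. Its level was 2.45 FPKM at 2 months and 2.06 at 6 months, which makes the 6 month value 0.838 times the younger one. On the log2(FPKM + 1) scale, where every change is given as 6 months minus 2 months, this is -0.18, the largest difference of the 9 genes on the deposited scaling. With the same upper quartile at both ages Shh was at -0.163 and Sufu at 0.165, nearly equal in size. Adding 1 FPKM makes the change of a low gene such as Shh smaller. With 0.1 FPKM added in its place, Shh was at -0.245 and Sufu at 0.162. A difference at least as large as the -0.18 of Shh, in either direction, was seen for 22.4% of all expressed genes. The other ligand genes of the family were lower than Shh at both ages. Ihh, the Indian hedgehog gene, was at 0.0816 and 0.118 FPKM, and Dhh, the desert hedgehog gene, at 0.0722 and 0.0735 FPKM. Shh was thus 30.1 times as high as Ihh at 2 months and 17.4 times at 6 months. Against Dhh it was 34.0 and 28.0 times as high. Ihh and Dhh were close to 0, so the differences of these ratios between the ages are not read here.

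Ptch1 encodes the main Hedgehog receptor, which is also a target that the pathway induces to limit itself. The gene spans 63508328 to 63573598 on chromosome 13. Ptch1 was at 15.4 FPKM at 2 months and 14.8 at 6 months, a log2 change of -0.053. Ptch1 and Shh were the only 2 of the 7 expressed genes whose 6 month value was the lower one.

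Hhip encodes a membrane protein that binds Hedgehog ligands and takes them away from Patched, and in many tissues it is induced by the pathway together with Ptch1. It lies on chromosome 8 from 79965851 to 80058006. Hhip had 0.0321 FPKM at 2 months and 0.0274 at 6 months, which is at the low end of what the table can give, and its change is not read here. Ptch1 was 481 times as high as Hhip at 2 months and 541 times as high at 6 months. With Hhip this close to 0, the difference between these 2 ratios is not read either. These 2 textbook targets of Gli proteins were therefore far apart in the same pools.

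The 250 bases before an annotated start of Ptch1 and of Hhip are shown, since these receptor genes, both known as targets, were far apart in level. They are RefSeq sequences of GRCm38.p6, 5′ to 3′ on the strand of the gene, with CG dinucleotides in capitals. The Ptch1 stretch lies on the minus strand at chr13:63565736-63565985 and the Hhip stretch on the minus strand at chr8:80058009-80058258. The GENCODE annotation gives Ptch1 10 distinct transcript starts, and it was not checked whether the RefSeq start is among them. The Ptch1 stretch lies inside the span of the gene.
Ptch1: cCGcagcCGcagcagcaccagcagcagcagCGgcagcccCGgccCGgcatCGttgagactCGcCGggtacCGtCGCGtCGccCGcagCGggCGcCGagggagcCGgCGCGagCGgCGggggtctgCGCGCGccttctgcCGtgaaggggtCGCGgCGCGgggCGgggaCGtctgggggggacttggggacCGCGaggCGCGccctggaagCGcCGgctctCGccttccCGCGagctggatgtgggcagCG
Hhip: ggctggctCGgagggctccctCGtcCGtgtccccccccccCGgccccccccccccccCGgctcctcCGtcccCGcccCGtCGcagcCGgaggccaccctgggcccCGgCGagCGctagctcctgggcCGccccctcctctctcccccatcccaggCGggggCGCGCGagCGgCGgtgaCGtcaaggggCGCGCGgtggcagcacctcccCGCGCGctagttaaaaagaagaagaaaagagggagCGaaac
The Ptch1 stretch has 41 CG dinucleotides at a G+C content of 78.4%, and the Hhip stretch has 28 at 76.0%. Both are thus G+C-rich. The same stretch had 72.8% in Gli3, 68.4% in Smo, 67.2% in Gli2 and 54.0% in Sufu. Whether these sequences bear on the levels was not tested. The promoter table, with windows of 300 bases that run to 50 bases past the start, has 6 of the 9 genes (Ptch1, Hhip, Smo, Sufu, Gli2 and Gli3), and entries for Shh, Gli1 and Boc were not used here. The Gli consensus GACCACCCA was searched on both strands. It was found in 0 of the 6 windows, exactly or with 1 mismatch, and in 0.253% of the 32851 windows of all genes exactly and 6.74% with up to 1 mismatch. The search covers these letters in these windows alone.

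Boc encodes a co-receptor that helps ligand bind Patched. It spans 44485049 to 44558897 on chromosome 16. Boc was at 7.71 FPKM at 2 months and 7.73 at 6 months, a log2 change of 0.0030, the smallest of the 7 expressed genes. Cdon, a relative of Boc, was at 2.97 and 3.25 FPKM. Gas1, which encodes a co-receptor anchored in the membrane by a lipid, was at 11.5 and 11.7 FPKM and had the highest level of the 3.

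Smo encodes Smoothened, the membrane protein that carries the signal into the cell. It lies on chromosome 6 from 29735503 to 29761365. Smo was at 25.6 FPKM at 2 months and 28.1 at 6 months, 1.10 times as high and a log2 change of 0.13. A difference at least as large was seen for 35.7% of expressed genes. The ratio of Ptch1 to Smo, a receptor that inhibits over the protein it inhibits, was 0.602 at 2 months and 0.528 at 6 months. Such ratios within an age do not depend on how the ages were scaled to each other.

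Sufu encodes the protein that holds Gli factors in the cytoplasm. It spans 46396896 to 46488804 on chromosome 19. Sufu was at 8.35 FPKM at 2 months and 9.35 at 6 months. Its log2 change of 0.15 was the largest among the genes with a higher 6 month value, and 30.1% of expressed genes differed by as much or more.

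The 3 Gli genes were unequal in level. Gli1, which encodes an activator that is itself induced by the pathway and is widely used as its readout, lies on chromosome 10 from 127329882 to 127341974. It went from 17.4 FPKM to 19.1 FPKM, a log2 change of 0.13. Gli2, which encodes the factor regarded as the main first activator, lies on chromosome 1 from 118834132 to 119053619 and was at 3.53 and 3.82 FPKM, a log2 change of 0.087. Gli3, whose protein acts mostly as a repressor when no ligand is present, spans 15463235 to 15730026 on chromosome 13. Its level stayed under 1 FPKM, with 0.756 at 2 months and 0.782 at 6 months.

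Gli1 thus made up 80.2% of the summed FPKM of the 3 Gli genes at 2 months and 80.6% at 6 months. The share of Gli2 was 16.3% and 16.1%, and that of Gli3 was 3.49% and 3.30%. The makeup of the Gli transcripts differed by less than 1 percentage point between the ages. The transcript of the activator Gli1 was 2.08 times as high as that of its inhibitor Sufu at 2 months and 2.05 times at 6 months. Relative to the receptor and target gene Ptch1, Gli1 was 1.13 times as high at 2 months and 1.29 times at 6 months. Both genes are read as signs of pathway activity, and the 6 month value was the higher one for Gli1 and the lower one for Ptch1.

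**Figure D2:**
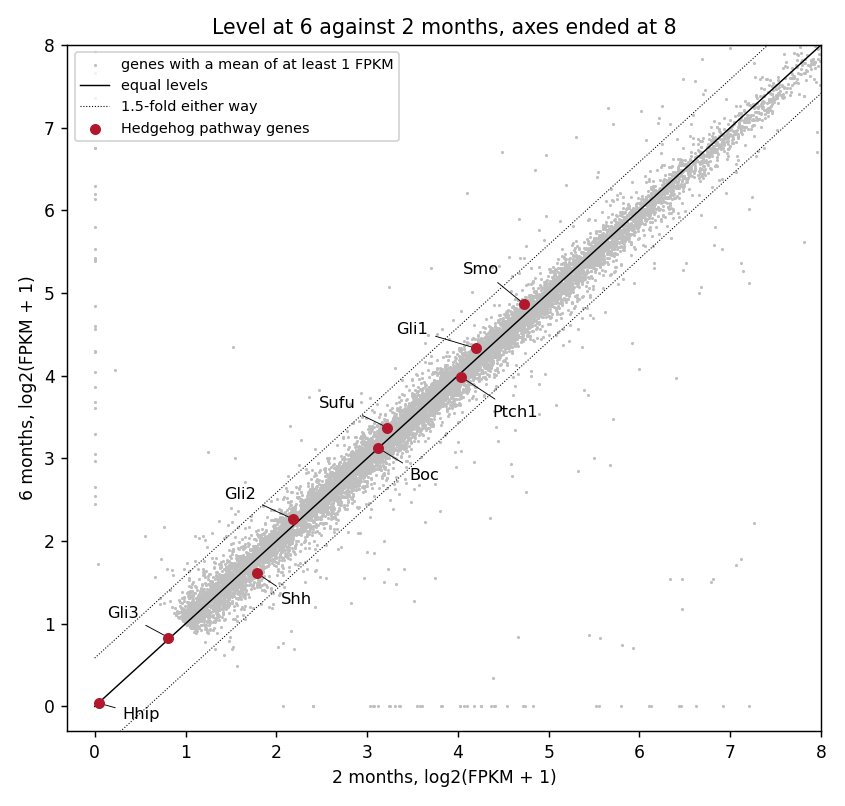
Level at 6 months against level at 2 months, both as log2(FPKM + 1), for expressed genes (grey) and the 9 Hedgehog pathway genes (red), with axes ended at 8. The solid line marks equal levels and the dotted lines a 1.5-fold difference. All 9 red points lie between the dotted lines, with Shh a little below and Sufu, Smo and Gli1 a little above the solid line. The scale itself holds points of low level, such as Hhip and Gli3, near the solid line.

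Of the 7 expressed genes, 0 differed by at least 1.5-fold between the ages on the log2(FPKM + 1) scale. Among all 12652 expressed genes, 2.77% did, so a count of 0 among 7 genes is near the background. Gli3 and Hhip, the 2 genes under 1 FPKM, also differed by less than 1.5-fold on this scale. Changes of such low genes come out too small on it. For Hhip, close to 0, the scale nearly fixes this outcome, so nothing is read from it. The 6 month value was the higher one for 5 of the 7 genes (Smo, Boc, Sufu, Gli1 and Gli2), against 46.3% of all genes, and for a gene as level as Boc the side carries little. The median log2 change of the 7 genes was 0.087 and that of all expressed genes was -0.012. The quartiles of all expressed genes were -0.10 and 0.079. Shh lay below this range and Smo, Sufu, Gli1 and Gli2 above it, all by under 0.1. With no values of single pools, differences of this size could not be set against the spread between pools, and these values do not show that the levels were equal.

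A wider list of 68 genes around the pathway held, besides the 9, further parts of ligand release, reception, inhibition by kinases, the primary cilium and known targets. Of these, 51 were expressed. Among the 51, 0 differed by 1.5-fold or more, against 2.77% of all genes, with 25 higher and 26 lower in the older mice and a median log2 change of -0.00065. The list therefore stood close to all genes in its centre.

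**Figure D3:**
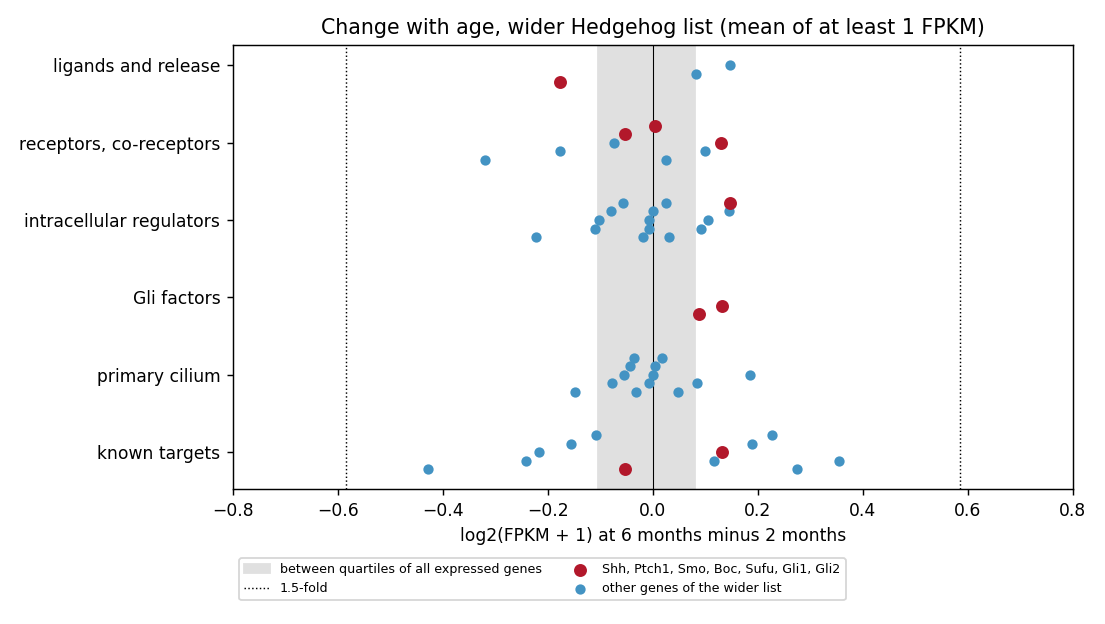
Difference of log2(FPKM + 1), 6 months minus 2 months, for each gene of the wider Hedgehog list that was expressed, in rows by role, with vertical position within a row only separating points. Larger red points are Shh, Ptch1, Smo, Boc, Sufu, Gli1 and Gli2, the grey band runs between the quartiles of all expressed genes (-0.10 to 0.079), and no point reaches the dotted lines at 1.5-fold; targets spread widest, from -0.43 to 0.36.

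In the class of ligands and their release, 3 of 9 genes were expressed, and Shh was the highest. Disp1 and Disp2, which encode Dispatched proteins of ligand release, were the others, with Disp1 at 1.23 and 1.47 FPKM. In the class of receptors and co-receptors, 8 of 12 genes were expressed, 4 higher and 4 lower at 6 months, with Smo the highest of the class. Gpc3, which encodes a glypican that binds ligand, had the largest difference there, from 6.91 to 5.34 FPKM, a log2 change of -0.32, and was picked out after its values were seen.

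Among 16 intracellular regulators, 15 were expressed, 7 higher and 8 lower. The highest was Csnk1a1, the gene of casein kinase 1 alpha, with 213 FPKM at 2 months and 211 at 6 months. This kinase phosphorylates Gli proteins but serves other pathways too. All 13 genes of the primary cilium were expressed, 5 higher and 8 lower, with a median of -0.0068. Tulp3, which encodes a protein that brings receptors into the cilium, was the highest at 16.5 and 15.6 FPKM. Transcripts of the organelle in which the signal passes were thus present at both ages.

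The known targets were taken from other tissues and were not shown here to be targets in taste cells. Of 19 in the table, 12 were expressed, 6 higher and 6 lower at 6 months, with a median of 0.032. The highest was Krt17, a keratin gene of stressed and appendage epithelium, at 8822 and 7465 FPKM, a log2 change of -0.24. The widest differences were those of Prdm1, the gene of the repressor Blimp1, with 11.4 and 8.23 FPKM, and of Jag2, a Notch ligand gene, with 23.9 and 30.8 FPKM. Their log2 changes were -0.43 and 0.36, and both genes were picked out after their values were seen. Ccnd1, the cyclin D1 gene, was at 76.1 and 92.3 FPKM and was also chosen so. Known targets thus lay on both sides of 0. Of the 12 expressed targets 0 differed by 1.5-fold or more, against 2.77% of all expressed genes.

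**Figure D4:**
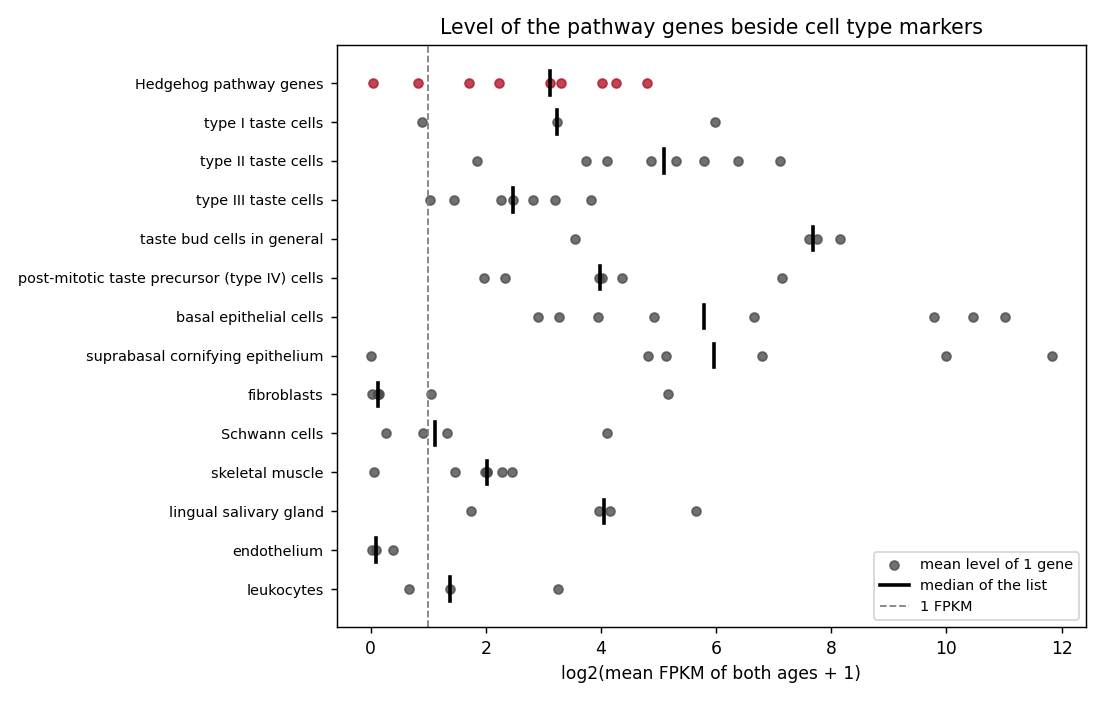
Mean level over the 2 ages as log2(FPKM + 1) of each Hedgehog pathway gene (red, top row) and each marker gene of 13 cell type lists (grey), with a bar at the median of each row and a dashed line at 1 FPKM. Most fibroblast and all endothelial markers lie left of the dashed line, while taste, precursor and basal epithelial markers lie to its right, with the exception of Slc1a3 of type I cells.

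Markers of the cells that could carry the pathway were read from the same table. All 6 genes of post-mitotic taste precursor cells, the cells known to make Shh, were expressed, with a summed level of 203 FPKM at 2 months and 190 at 6 months and a median log2 change of -0.059. Sox2, a factor needed for taste bud formation, was the highest at 146.9 and 133.6 FPKM, and Foxa2, found in the Shh-expressing cells, was at 20.7 and 18.6 FPKM. Shh was 0.118 times as high as Foxa2 at 2 months and 0.111 times at 6 months. All 8 basal epithelial markers were expressed, 4 higher and 4 lower, summing to 4543 and 4497 FPKM, with Krt5 the highest at 2180 and 1962 FPKM. Whether the difference in Shh follows the number of precursor cells was not tested.

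Stromal cells also respond to Hedgehog ligands in many tissues. Of the 8 fibroblast markers, 6 had means under 0.2 FPKM, among them Col1a1 at 0.134 and 0.0599 FPKM and Pdgfrb at 0.0125 and 0.0149 FPKM. Of the 2 expressed markers, Dcn was past 1.5-fold, at 42.0 and 27.3 FPKM with a log2 change of -0.60. Pdgfra, the other, was at 1.10 and 1.05 FPKM. Differences of the 6 low markers were not called. The part of stromal cells in the levels of Gli1 and Ptch1 was not tested. Of 3 endothelial markers 0 were expressed, with Pecam1 the highest at 0.331 and 0.295 FPKM, and 2 of 4 Schwann cell markers were expressed, with Mbp at 16.2 and 16.0 FPKM.

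Taste cell markers were present at both ages. Of 3 type I markers 2 were expressed (Entpd2 the highest, 66.1 and 57.7 FPKM), as were all 8 of type II (Gng13, 148 and 126 FPKM), all 7 of type III (Pkd2l1, 12.4 and 14.0 FPKM) and all 4 of taste buds in general (Krt19, 308 and 262 FPKM). In these 4 lists 0 expressed genes differed by 1.5-fold, against 2.77% of all expressed genes. All 4 general taste bud markers had the lower value in the older mice (median -0.25 on the log2 scale). Both expressed type I markers were also lower (median -0.21). Slc1a3, the type I marker under 1 FPKM, was higher in the older mice, with 0.710 FPKM at 2 months and 0.988 at 6 months. Type II had 4 higher and 4 lower and type III 5 higher and 2 lower. Differences past 1.5-fold were seen in other lists. Skeletal muscle markers summed to 12.8 FPKM at 2 months and 25.7 at 6 months, with 5 of 6 expressed genes higher by at least 1.5-fold, while Mylpf, the highest by mean level at 3.76 and 5.25 FPKM, was not past it. Salivary gland markers summed to 121.8 and 44.4 FPKM, with Lipf lower, at 83.7 and 14.7 FPKM, and Dcpp2 higher, at 1.45 and 3.28 FPKM, both past 1.5-fold. Among suprabasal markers, 4 of 5 expressed genes were lower by at least 1.5-fold. This counts Krt4, the highest of the list at 7334 FPKM at 2 months and listed at 0 at 6 months. That 0 can be a failed estimate, so the difference of Krt4 is not read here. Krt13 of the same list was listed at 0 at both ages. Leukocyte markers summed to 12.0 and 9.63 FPKM, with Cd68 the highest at 10.0 and 7.15 FPKM, while Ptprc was at 1.54 and 1.65 FPKM and Cd3e at 0.370 and 0.822 FPKM. The part of these lists in the values of the 9 genes was not tested.

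Some exons of the pathway genes are shared with genes on the other strand in the GENCODE annotation of GRCm38. Of the exonic bases of Shh, 15.7% overlap 9530036O11Rik, which had its own row at 0.0664 and 0.0857 FPKM, far under Shh, and 12.7% overlap Gm26894. Of those of Gli1, 1.24% overlap Arhgap9, a gene of blood cells at 1.31 and 1.35 FPKM, and 5.31% overlap Gm47200. No source used here says that the reads were counted by strand, so reads from such stretches cannot be told apart. Gli3 and Hhip share under 2% each, and Smo, Ptch1, Gli2, Sufu and Boc share no exonic base with another gene.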

How the data were processed

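RNA of 6 pools of CV/Fol taste cells was sequenced. Read mapping by the authors used TopHat2 2.0.7 and the GRCm38/mm10 genome. The authors estimated FPKM of RefSeq genes with Cufflinks 2.1.1 and deposited 1 FPKM value per gene and age. How Cuffdiff normalized the libraries is not given in the sources used here. The 6 month column was recognised by the letter B, which the 6 month sample titles carry, and the 2 month column by the letter S. The labels give 2 and 6 months, while the design text once names 3 months. The table also holds the authors' p-value of their own comparison, which was not used.

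A change is the 6 month value of log2(FPKM + 1) less the 2 month value, a scale on which changes of low genes come out too small. A gene was taken as expressed at a mean of 1 FPKM or more over the 2 ages, and a difference of at least 1.5-fold on that scale was called. No test was made. The 9 genes, the wider list, the 13 marker lists and the rule for named genes (all 9, the further ligands and receptors, the highest gene of each list and any wider gene past 1.5-fold) were chosen with earlier results of these data known. Not every gene under that rule is reported here. Of 71 symbols of the wider list, including older names of the same genes, 68 matched. Gene positions and exon overlaps came from GENCODE M21 and promoters from RefSeq. The calculation was tested on simulated data. Alternatives were another pseudocount, filter, fold and scaling. Python 3.11.15, numpy 2.4.6, pandas 2.3.3 and matplotlib 3.10.9 were used.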

Additional observations from a re-analysis of the deposited data

How the results depend on the processing

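No paired analysis was possible because single pools have no values in the table, and for the same reason no replicate was left out. The count of Hedgehog genes past 1.5-fold was 0, and 0 in the wider list, with a pseudocount of 0.1 FPKM, with the same upper quartile at both ages (6 month values times 1.01), without a filter, at a minimum mean of 5 FPKM and at 2-fold. Without a filter these counts take in genes of low level, such as Gli3 and Hhip, whose changes the scale makes small. All 9 genes kept the sign of their change with that pseudocount and that scaling. The largest shift was the 0.068 of Shh with that pseudocount. With that scaling Sufu, at 0.165, and Shh, at -0.163, were nearly equal in size. With that pseudocount Shh was at -0.245 and Sufu at 0.162, so which of the 2 differed more depends on the setting. The median log2 change of the Hedgehog genes ranged from 0.021 without a filter to 0.13 at a minimum mean of 5 FPKM. That of the wider list ranged from -0.00071 with the smaller pseudocount to 0.013 with the same upper quartile, so its sign depends on these settings. The share of all genes past the fold was 2.77%, 3.63% with a pseudocount of 0.1 FPKM, and 1.60% at 2-fold. It was 2.16% without the 79 genes listed at 0 at 1 age, which can be failed estimates, an alternative chosen after seeing the data. Medians were taken as the same when they moved by less than 0.1, since no spread between pools is known.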
